A study of Mus musculus with 24 samples.

Results

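Kcnq1ot1, Kcnq1 and Cdkn1c on mouse chromosome 7, and Igf2r and Airn on chromosome 17, were followed through DNA methylation tables of liver, brain and heart. The rule gives the 5 genes by name and takes their 100 bp tiles from 5000 bp upstream of each transcription start to the end of the gene on mm10. This gave 214 tiles of 819713 in the liver table, 250 of 942643 in the brain table and 250 of 930358 in the heart table. Together these were 265 different tiles, of which 200 were present in all 3 tables.

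The tissues came from C57Bl/6J mice of 24 weeks, an inbred strain, with no treatment in any group. Liver was sampled from 6 males and 6 females, and brain and heart from 3 males and 3 females each, which gave 12, 6 and 6 libraries of reduced representation bisulphite sequencing (RRBS), a method that reads cytosine methylation in the CpG-rich part of the genome. The columns of each table carried running numbers only, so libraries were grouped by tissue and genders were not compared. Brain and heart came from the same 6 mouse numbers, all of which were also in the liver set, and 2 of those numbers carried the opposite gender in liver. The DNA came from sections of the front of the brain, the apex of the heart and the left lobe of the liver, each a mixture of cells, so a shift in the mixture of cells and a shift within cells cannot be told apart, nor can tissue and the separate filtering of each table.

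Imprinted genes are expressed from the chromosome inherited from 1 parent. In both clusters a long antisense RNA starts inside a protein-coding gene, Kcnq1ot1 within Kcnq1 and Airn within Igf2r, and is transcribed from the paternal chromosome, where it silences neighbouring genes. The start region of each RNA is methylated on the maternal chromosome from the egg onwards, so an intermediate level, with 1 of the parental copies methylated, is the textbook state of these germline differentially methylated regions. Igf2r, the receptor that clears insulin-like growth factor II, gains promoter methylation on its silent paternal copy after fertilisation in most tissues, while neurons are known to express both copies. Cdkn1c encodes a cyclin-dependent kinase inhibitor that restrains growth, and Kcnq1 encodes a subunit of a cardiac potassium channel.

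The tiles on which the results turn follow as the plus strand of GRCm38.p6, the patch of the mm10 build in the reference used, with each CpG in capitals. No measured tile held the start of Kcnq1ot1 or Airn, so the labels below name the start that each tile lies near. One pair lies downstream of the Kcnq1ot1 start, with midpoints 896.5 and 996.5 bp from it, at chr7:143295601-143295700 and chr7:143295501-143295600. Another pair lies downstream of the Airn start, with midpoints 439.5 and 1039.5 bp from it, at chr17:12741701-12741800 and chr17:12742301-12742400. The last pair lies at the start of Igf2r, at chr17:12769301-12769400 in coding exon 1 and chr17:12769701-12769800 across the transcription start.
Kcnq1ot1 start, first tile: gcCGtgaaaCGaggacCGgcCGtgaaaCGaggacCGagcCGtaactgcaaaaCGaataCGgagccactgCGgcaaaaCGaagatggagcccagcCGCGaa
Kcnq1ot1 start, second tile: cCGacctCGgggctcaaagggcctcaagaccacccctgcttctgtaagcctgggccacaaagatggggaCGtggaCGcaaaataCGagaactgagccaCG
Airn start, first tile: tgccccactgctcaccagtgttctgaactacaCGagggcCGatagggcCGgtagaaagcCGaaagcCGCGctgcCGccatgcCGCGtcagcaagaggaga
Airn start, second tile: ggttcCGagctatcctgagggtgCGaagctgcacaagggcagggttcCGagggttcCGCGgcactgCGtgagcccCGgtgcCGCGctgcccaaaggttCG
Igf2r coding exon 1 tile: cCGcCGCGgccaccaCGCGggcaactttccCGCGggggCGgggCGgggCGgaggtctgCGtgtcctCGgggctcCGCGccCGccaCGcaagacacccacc
Igf2r transcription start tile: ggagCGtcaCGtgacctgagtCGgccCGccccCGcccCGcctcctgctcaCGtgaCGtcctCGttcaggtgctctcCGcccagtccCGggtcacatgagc

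These 6 tiles held between 6 and 16 CpGs each, against a median of 2 CpGs per tile in each of the 3 tables. The letters TGCCGC, the core of the sequence bound by the imprint-keeping protein ZFP57, were searched on both strands and were found in 3 of the 7 tiles of the antisense promoters. They occurred 2 times in each of the Airn tiles shown and once in the first Kcnq1ot1 tile. The same letters were in 8 of the 265 tiles of the 5 genes, among them the Igf2r promoter tile from chr17:12769401, and in 2.25% of all tiles. The letters hold a CpG, and these shares were not matched for the number of CpGs per tile. In RefSeq promoters of 300 bases, 11.6% of 32851 held them, and the windows of Kcnq1ot1, Igf2r and Airn held none. Those 300-base windows had 9 CpGs for Kcnq1ot1, 34 for Igf2r and 3 for Airn, and the windows of Kcnq1ot1 and Airn had no CCGG, the site cut by the enzyme MspI that is standard in RRBS.

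Both antisense promoters had intermediate methylation in all 3 tissues, and no tissue difference at either of them passed the test. Promoter levels were the mean of tiles within 1000 bp of the transcription start, and differences were tested with limma over 18117 promoters. A difference was called at a Benjamini-Hochberg adjusted p-value of 0.01 or less together with at least 25 percentage points.

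The Kcnq1ot1 promoter was represented by 2 tiles, both in its single exon and in intron 11 of Kcnq1, since the nearest tiles in any table lay 847 bp downstream and 2854 bp upstream of the start. Liver libraries ranged from 24.4% to 46.4% with a median of 36.4%, and brain libraries from 17.6% to 43.3% with a median of 30.1%. Heart libraries ranged from 18.8% to 55.5% with a median of 40.2%, so the 3 tissues overlapped throughout. The means were 37.3% ± 6.21 (SD, n = 12), 30.3% ± 10.8 (SD, n = 6) and 40.3% ± 13.4 (SD, n = 6).

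The Kcnq1ot1 differences were -7.02 points for brain minus liver, 3.00 for heart minus liver and -10.0 for brain minus heart. By limma, the adjusted p-values were 0.21, 0.63 and 0.15. The 95% intervals ran from -16.2 to 2.21, from -6.23 to 12.2 and from -20.7 to 0.641 points, so differences of these sizes were not detectable with these libraries. Without brain library 1, which stood apart at the Igf2r and Airn promoters and at a Kcnq1 tile, the brain mean was 31.9%.

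Another tile of the Kcnq1ot1 exon, chr7:143295401-143295500, had 40.7% in liver, 35.4% in brain and 39.1% in heart. The tile beside it, measured in brain and heart only, had 41.5% and 40.5%. The nearest tiles measured on each side of this block had higher means. The next tile in the transcribed direction, some kilobases away, had 77.3%, 69.3% and 53.7% in liver, brain and heart. Its heart libraries, at 48.2% to 58.9%, lay within the 19.2% to 62.4% of the first tile shown above. The tile adjoining it, from chr7:143289701, was intermediate, with 58.1%, 50.2% and 53.8%, and the downstream edge of the block was not measured. The next tile upstream of the start had 97.6%, 95.9% and 94.4%.

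The spread between libraries near the Kcnq1ot1 start was wide. In the first tile brain libraries ran from 20.2% to 43.2% and heart libraries from 19.2% to 62.4%, with SDs of 10.3 and 14.5 points, against 6.08 in liver. For scale, 6238 tiles of the series had 5 or more CpGs and means between 25% and 75% in all tissues. Their median SD was 6.39 points in liver, 6.89 in brain and 5.35 in heart. Read depth per tile is unknown, and its part in this spread was not tested.

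The Airn promoter was represented by 5 tiles, all in intron 1 of Airn and intron 2 of Igf2r and the nearest 190 bp downstream of the start. Upstream, no tile was measured within 14811 bp. Liver libraries ranged from 37.1% to 49.8% with a median of 44.2%, brain libraries from 34.6% to 54.2% with a median of 37.0%, and heart libraries from 30.1% to 49.1% with a median of 35.6%. The ranges overlapped, and 5 of 6 brain libraries lay at or below 41.1% while brain library 1 had 54.2%.

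The Airn means were 43.5% ± 3.89 (SD, n = 12) in liver, 39.8% ± 7.42 (SD, n = 6) in brain and 36.9% ± 7.36 (SD, n = 6) in heart. The differences were -3.67 points for brain minus liver (95% interval -9.43 to 2.08), -6.64 for heart minus liver (-12.4 to -0.885) and 2.97 for brain minus heart (-3.68 to 9.61). By limma, the adjusted p-values were 0.29, 0.053 and 0.56. A two-sided exact permutation test of heart minus liver alone gave an unadjusted p of 0.0232. Without brain library 1 the brain mean was 37.0% and brain minus heart was 0.103 points.

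**Figure D1:**
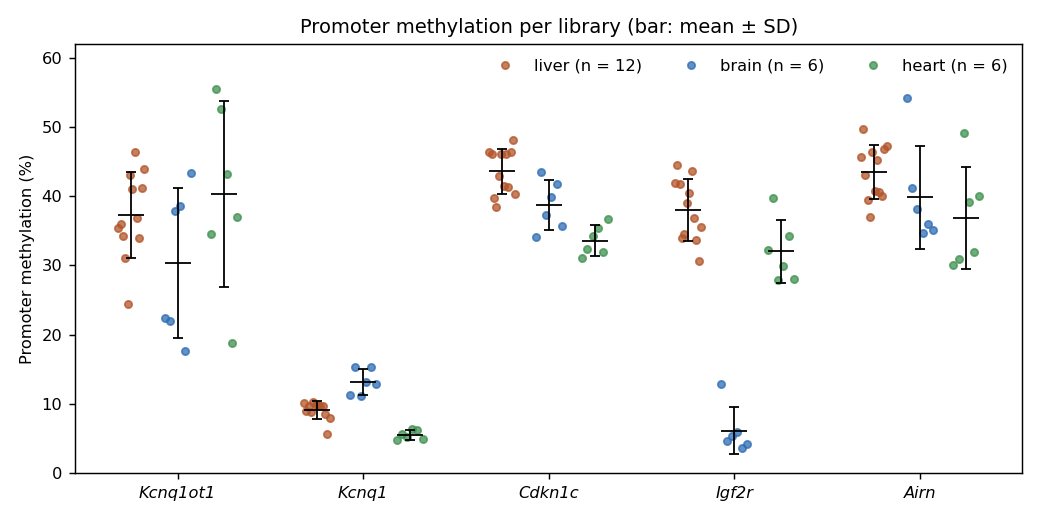
Promoter methylation in percent (vertical axis) of the 5 genes in each library of liver (n = 12), brain (n = 6) and heart (n = 6), each point 1 library and the bars the mean ± SD. The brain points of Igf2r, at 3.63% to 12.8%, lie below all liver and heart points, while the tissues overlap at Kcnq1ot1 and Airn.

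Within Airn, downstream of its start, the level rose in liver and brain before it rose in heart. Over 9 tiles from chr17:12741501 to 12743000 the mean was between 25% and 75% in all tissues, and the first 7 of these stood at 39.0% to 46.3% in liver, 35.1% to 44.5% in brain and 33.5% to 40.5% in heart. The last 2 tiles of the run had 62.9% and 60.5% in liver, 58.4% and 59.9% in brain, and 39.2% and 39.4% in heart. No library of heart reached the lowest liver or brain library in the last of these, with a highest heart value of 43.7% against a lowest of 53.6% in liver and 52.9% in brain. These pairs fell short of 25 points, with heart minus liver at -23.7 and -21.2 points (limma, adjusted p = 4.8e-05 and 4.9e-07).

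The tile after the run, chr17:12743001-12743100, had 96.6% ± 3.12 (SD, n = 12) in liver, 78.6% ± 6.15 (SD, n = 6) in brain and 54.5% ± 6.90 (SD, n = 6) in heart. Its libraries ran from 89.4% to 100% in liver, from 68.9% to 86.7% in brain and from 45.7% to 64.4% in heart, so no 2 tissues overlapped. Heart minus liver was called at -42.0 points (limma, adjusted p = 3.7e-13), and brain minus heart, at 24.1 points, lay just under the threshold of size. The run was delimited by these same means, so the place of its edge is no separate result. Heart was already below liver in the last 2 tiles of the run, short of 25 points. Promoters were also averaged over 2000 bp on each side, which takes in these 2 tiles and the tile after the run. Airn heart minus liver was then -12.3 points (limma, adjusted p = 2.9e-07), still below 25 points.

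**Figure D2:**
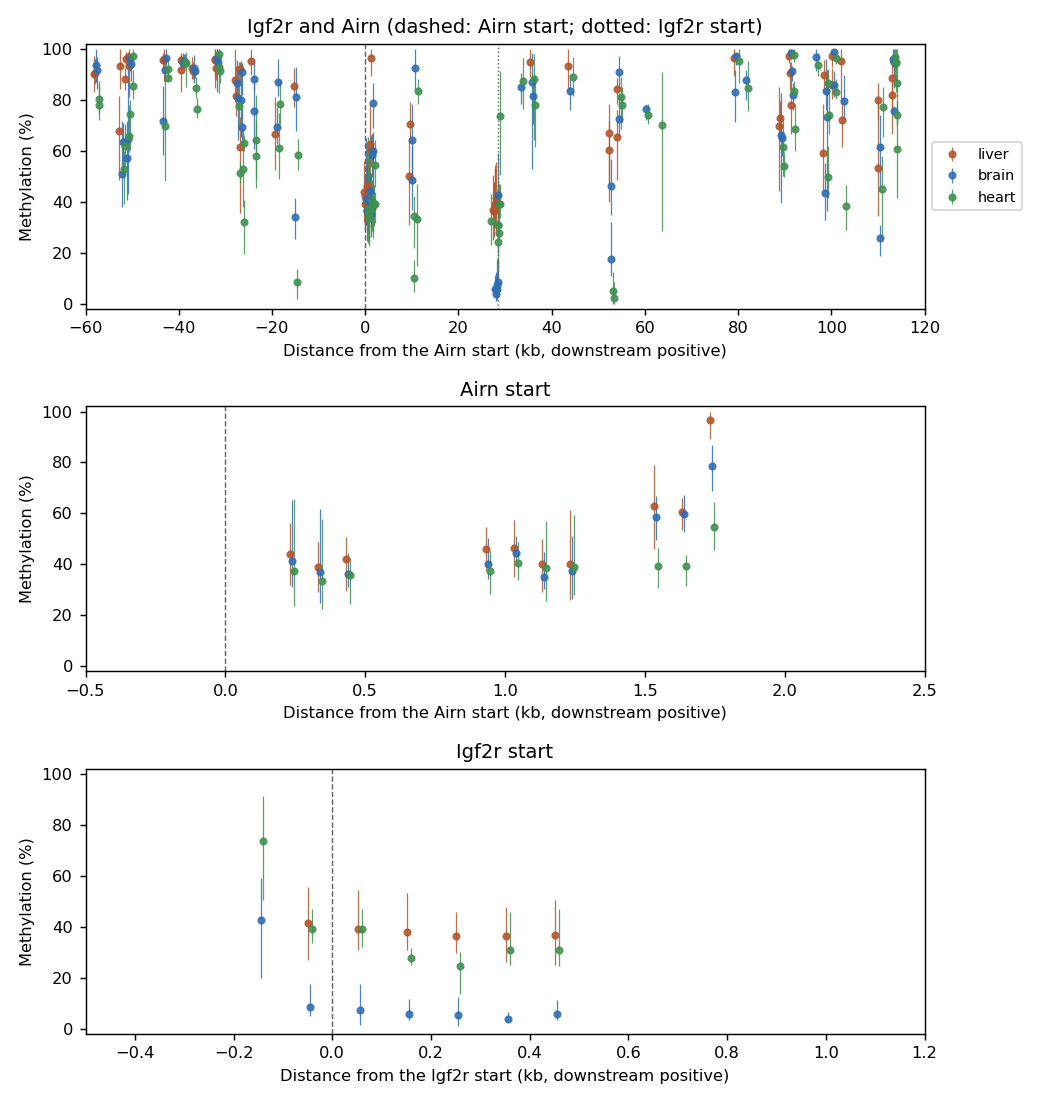
Methylation in percent of the tiles of Igf2r and Airn against the distance in kb from the Airn start (upper and middle panels) or the Igf2r start (lower panel), with points for the mean and lines for the range over libraries of each tissue, and tissues set slightly apart on the horizontal axis. Tiles near the Airn start lie at intermediate levels in all tissues, and tiles at the Igf2r start are low in brain, where the 6 shared tiles had a mean of 6.09%.

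The Igf2r promoter, a CpG-rich region over exon 1 with 6 tiles in all tables, had a low level in brain and was intermediate in liver and heart. Liver libraries ranged from 30.6% to 44.5% with a median of 37.9%, heart libraries from 27.9% to 39.7% with a median of 31.1%, and brain libraries from 3.63% to 12.8% with a median of 5.02%. Every brain library lay below every library of the other tissues, while liver and heart overlapped.

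The Igf2r means were 38.0% ± 4.45 (SD, n = 12) in liver, 6.09% ± 3.38 (SD, n = 6) in brain and 32.0% ± 4.5 (SD, n = 6) in heart. Brain minus liver was -31.9 points with an SE of 2.02 (limma, adjusted p = 6.8e-13) and brain minus heart was -25.9 points with an SE of 2.33 (limma, adjusted p = 2.0e-09). Both were called, and Igf2r was the only one of the 5 promoters with a call. Of all promoters 3.47% were called between brain and liver, 2.47% between brain and heart and 3.54% between heart and liver. Heart minus liver was -6.02 points (limma, adjusted p = 0.016). Without brain library 1, which was the highest of the 6 in each of the 6 tiles, the brain mean was 4.75% and brain minus liver -33.3 points.

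The low level in brain ran through all 6 tiles. In the tile across the transcription start, brain libraries ran from 5.10% to 17.5% with a median of 7%, liver libraries from 26.8% to 55.5% with a median of 42.7%, and heart libraries from 33.5% to 46.9% with a median of 37.6%. In the coding tile shown above, brain libraries ran from 2.5% to 6.40%, liver libraries from 26.1% to 47.8% and heart libraries from 25.2% to 45.9%. All 6 tiles were called lower in brain than in liver, and 3 of 6 were called lower in brain than in heart, the other 3 falling short of 25 points. A seventh tile just upstream of the start, measured in brain and heart only, stood higher, with a mean of 42.6% in brain and 73.7% in heart. With all tiles of its own table, this one included, the brain promoter level was 11.3%. Liver and heart differed little at the 2 tiles nearest the start (39.1% and 41.5% against 39.1% and 39.1%) and more within the gene, where heart fell by 11.9 points below liver in one coding tile (limma, adjusted p = 0.00039).

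Cdkn1c was measured at 12 tiles of its promoter in all tables. Liver libraries ranged from 38.5% to 48.1% with a median of 44.5%, brain libraries from 34.1% to 43.5% with a median of 38.6%, and heart libraries from 31.0% to 36.7% with a median of 33.3%. The heart range lay wholly below the liver range, and brain lay between and overlapped both. Heart minus liver was -10.0 points with an SE of 1.59 (limma, adjusted p = 8.6e-06), a size below 25 points, and brain minus liver was -4.92 points (limma, adjusted p = 0.012).

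The Cdkn1c level was far from even along the gene. The lowest promoter tile, in coding exon 2, had 17.1% in liver, 17.5% in brain and 16.9% in heart, with no tissue apart from the others. The tile with the highest mean over the tissues, upstream of the start, had 70.9%, 73.1% and 54.5%. Single tiles were called once in Cdkn1c, at chr7:143462001-143462100 upstream of the start, with 70.5% in liver, 54.8% in brain and 43.3% in heart. Farther upstream a second region of low level had tiles down to 11.8% in liver, 8.92% in brain and 7.45% in heart.

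Kcnq1, in which the antisense RNA lies, had the lowest promoter level among the 5 genes in liver and heart. Over 8 tiles liver libraries ranged from 5.56% to 10.3% with a median of 9.64%, brain libraries from 11.2% to 15.3% with a median of 12.9%, and heart libraries from 4.74% to 6.30% with a median of 5.43%. Brain libraries lay above all others, while the lowest liver library overlapped heart. The SDs were 1.30, 1.85 and 0.664 points, and the differences were 4.09 points for brain minus liver, -3.57 for heart minus liver and 7.66 for brain minus heart (limma, adjusted p = 1.2e-05, 7.8e-05 and 1.3e-08). With tiles weighted by their CpGs the means of 9.06%, 13.1% and 5.49% in liver, brain and heart became 5.43%, 8.51% and 3.60%.

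The tile across the Kcnq1 start had 1.22% in liver, 0.550% in brain and 0.917% in heart. Most of the tissue difference sat in the 2 tiles farthest upstream. The tile from chr7:143106901 had 41.8% in liver, 46.8% in brain and 19.1% in heart, and brain minus heart was called there at 27.7 points (limma, adjusted p = 5.6e-06). The tile beside it, from chr7:143106801, had 12.8%, 29.8% and 11.6%.

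**Figure D3:**
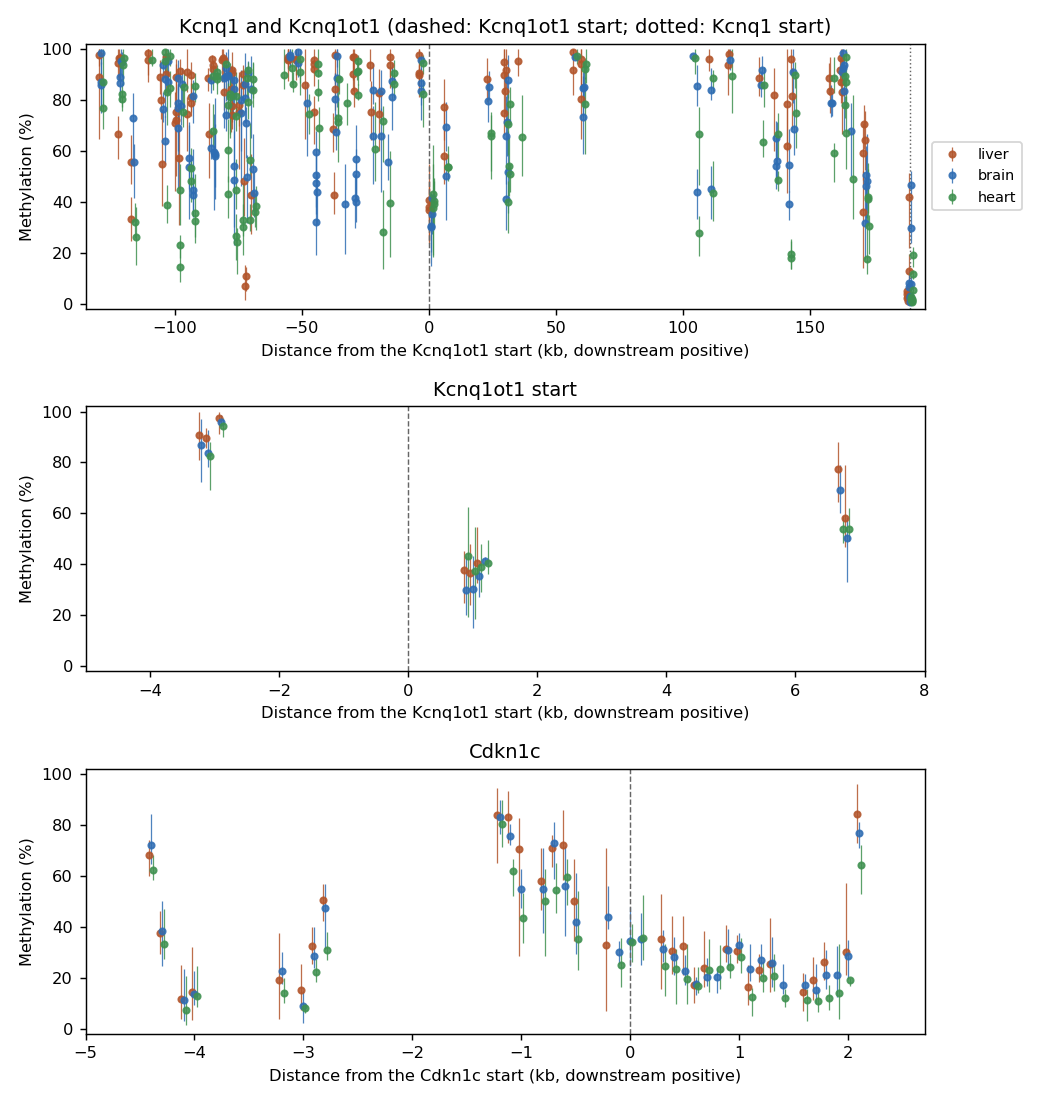
Methylation in percent of the tiles of Kcnq1 and Kcnq1ot1 (upper panel), near the Kcnq1ot1 start (middle panel) and along Cdkn1c (lower panel) against the distance in kb from the named start, with points for the mean and lines for the range over libraries of each tissue. The block of tiles downstream of the Kcnq1ot1 start has lower means than the nearest measured tile on each side, some kilobases away. The tile across the Kcnq1 start, at the dotted line of the upper panel, has 1.22% in liver, 0.550% in brain and 0.917% in heart.

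Among all 200 tiles, 30 were called between brain and liver, 40 between heart and liver and 37 between brain and heart, and 64 (32%) were called in at least 1 comparison, against 18.8% of all tiles. Brain was higher than liver in 2 tiles (1%) and lower in 28 (14%), where 4.76% and 5.04% of all 758685 tiles were called higher and lower. Heart was higher than liver in 4 tiles (2%) and lower in 36 (18.0%), against 2.87% and 7.94% of all tiles. Brain was higher than heart in 24 tiles (12%) and lower in 13 (6.5%), against 7.71% and 1.75%. The shares called higher against liver lay below those of the whole table, and the other 4 shares lay above them. Neighbouring tiles can share reads and are not independent, and all comparisons share libraries.

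Tiles in all 3 tables were sparse near the 5000 bp borders. For Kcnq1 the nearest lay 4596 bp inside and 6803 bp outside, with 12.8% and 28.7% in liver. For Cdkn1c they lay 599 bp inside and 9100 bp outside, with 68.4% and 18.3%. For Igf2r they were the tile across its start, 4955 bp inside, and one 2444 bp outside, with 41.5% and 94.9%. A tile at the Igf2r border, measured in brain and heart only, had 85.2% and 87.5%. The borders of the antisense RNAs lie inside the other genes.

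The medians moved the same way. Across the 200 tiles the median difference was -3.33 points for brain minus liver, -6.85 for heart minus liver and 3.98 for brain minus heart, where all tiles had -0.283, -3.50 and 3.00. The heart tables were lower as a whole, with library means of 61.0% to 61.8% against 65.7% to 67.0% in liver and 65.4% to 68.2% in brain.

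None of the 7 tiles of the antisense promoters that were in all tables was called in any comparison, and 64 of the other 193 were. Of all tiles, 18.8% were called in at least 1 comparison, the measure of each count of called tiles by region below. The 7 tiles lie close together near 2 starts, too few and too dependent to tell 0 of 7 apart from that share. By limma without adjustment, 0 of the 7 had a p-value under 0.05 for brain minus liver, 2 for heart minus liver and 1 for brain minus heart. The called tiles lay mostly in the introns of Kcnq1. Of 82 tiles of Kcnq1 outside the antisense RNA and the promoter, 37 were called, and of 15 tiles overlapped by Kcnq1ot1 or its upstream region, 4 were. In Igf2r 8 of 24 tiles outside Airn and 3 of 7 tiles overlapped by Airn were called, as were 4 of 21 tiles in Airn beyond Igf2r. The Igf2r promoter had 6 of 6 called and the Kcnq1 promoter 1 of 8. Cdkn1c had 1 called tile, in the promoter, among its 30. With a threshold of 10 points the totals over the 200 tiles rose to 58 (29%), 80 (40%) and 75 (37.5%) for the 3 comparisons, against 24.6%, 28.8% and 27.5% of all tiles.

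Of the 200 tiles, 19 (9.5%) were called lower in heart than in both other tissues, 13 (6.5%) lower in brain than in both, and 2 (1%) lower in liver than in both. Of all tiles 3.66%, 1.43% and 2.46% had these patterns. The tiles low in heart comprised 11 of Kcnq1, 4 of Igf2r outside Airn, 2 of Igf2r overlapped by Airn and 2 of Airn beyond Igf2r. The tiles low in brain comprised 10 of Kcnq1 and 3 of the Igf2r promoter.

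The largest tissue difference among the 200 tiles was in intron 15 of Kcnq1, at chr7:143367601-143367700. Liver libraries ran from 5.10% to 14.3% with a median of 10.3%, brain libraries from 85.7% to 95.2% with a median of 90.6%, and heart libraries from 50.0% to 71.0% with a median of 54.3%. No 2 tissues overlapped, and brain minus liver was 79.8 points (limma, adjusted p = 3.0e-18). The tile from chr7:143367801 had the same order, with 6.87% in liver, 49.8% in brain and 33.0% in heart.

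In intron 11 of Kcnq1, at chr7:143325501-143325600, brain stood alone at the low end. Brain libraries ran from 29.9% to 50.9% with a median of 40.9%, liver libraries from 87.9% to 100% and heart libraries from 87.7% to 96.0%. Brain was also lowest in the 3 neighbouring tiles, one of them at 96.7% in liver, 56.7% in brain and 95.5% in heart.

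Beyond Igf2r, in an intron of Airn, the adjacent tiles from chr17:12794001 and chr17:12794101 had the lowest heart levels of the cluster. In the first, heart libraries ran from 0% to 12.5% with a median of 3.80%, brain libraries from 34.9% to 56.7% with a median of 46.2%, and liver libraries from 40% to 78.6% with a median of 68.6%. In the second, the means were 60.5% in liver, 17.4% in brain and 2.10% in heart, and no 2 tissues overlapped. Heart minus liver was -61.7 and -58.4 points (limma, adjusted p = 2.7e-12 and 5.8e-13).

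**Figure D4:**
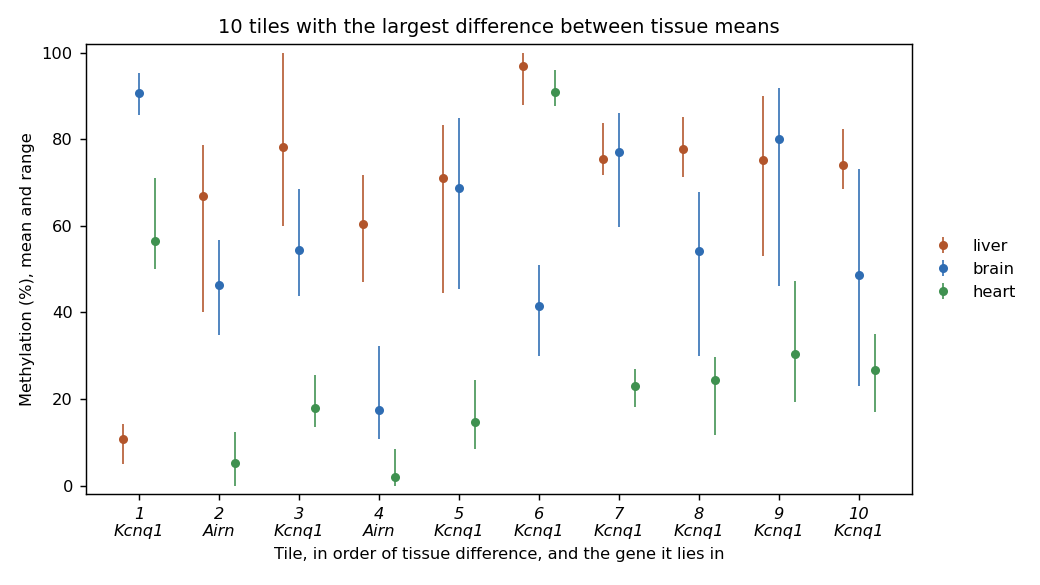
Methylation in percent (mean and range over libraries) of the 10 tiles outside the antisense promoters with the largest difference between tissue means, in that order, 8 in Kcnq1 and 2 in Airn. Tile 1 is lowest in liver, tile 6 is lowest in brain, and heart is lowest in the other 8.

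The promoters of the neighbouring genes were mostly at low levels. In the Kcnq1ot1 cluster 12 of 13 listed genes had a promoter value, and 1 was called in 1 comparison, Tspan32, a tetraspanin, with 84.0% in brain and 58.3% in heart (limma, adjusted p = 6.3e-08). The placental growth regulator Phlda2, a known target of this cluster, had 3.87% in liver, 6% in brain and 3.34% in heart. Cd81, Tssc4, Ascl2, Nap1l4, Tnfrsf22 and Tnfrsf23 were also under 10% in each tissue. Dhcr7, the last enzyme of cholesterol synthesis, had 8.13% in liver, 29.6% in brain and 27.1% in heart, without a call. Trpm5, a cation channel gene, had 40.1%, 43.8% and 23.8%, and Osbpl5, which encodes an oxysterol-binding protein relative, had 8.82%, 15.4% and 11.5%, also without a call. Th, the rate-limiting enzyme of catecholamine synthesis, had 49.8% in liver, 73.6% in brain and 53.8% in heart, and brain minus liver was 23.8 points (limma, adjusted p = 3.0e-09), short of 25 points. It was the only one of the 12 with 25% to 75% in all tissues.

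In the Airn cluster 3 of 5 genes considered had a promoter value. The organic cation transporter genes Slc22a2 and Slc22a3, which Airn is known to silence in placenta, were not called, with Slc22a2 at 92.8% to 94.1% and Slc22a3 at 9.06% to 14.3% across tissue means. Map3k4, a kinase gene, was near 0 in each tissue.

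Of 4 other imprinted genes with maternal germline methylation 3 had a promoter value. Peg3 had 39.6% in liver, 41.3% in brain and 42.4% in heart over 1 tile, and Plagl1 had 38.1%, 35.1% and 36.3% over 5 tiles, with no call. Mest had 53.0%, 68.9% and 76.7% over 4 tiles, and heart minus liver was 23.8 points (limma, adjusted p = 6.0e-12). The window was set at the outermost RefSeq start, and whether the Mest tiles lie in its germline methylated region was not tested. The tissue means of Kcnq1ot1 and Airn, at 30.3% to 43.5%, spanned those of Peg3 and Plagl1, at 35.1% to 42.4%. Of all tiles with 5 or more CpGs, 4.05% had means between 25% and 75% in the 3 tissues, a range chosen after values were seen, while all 7 tiles of the antisense promoters did.

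**Figure D5:**
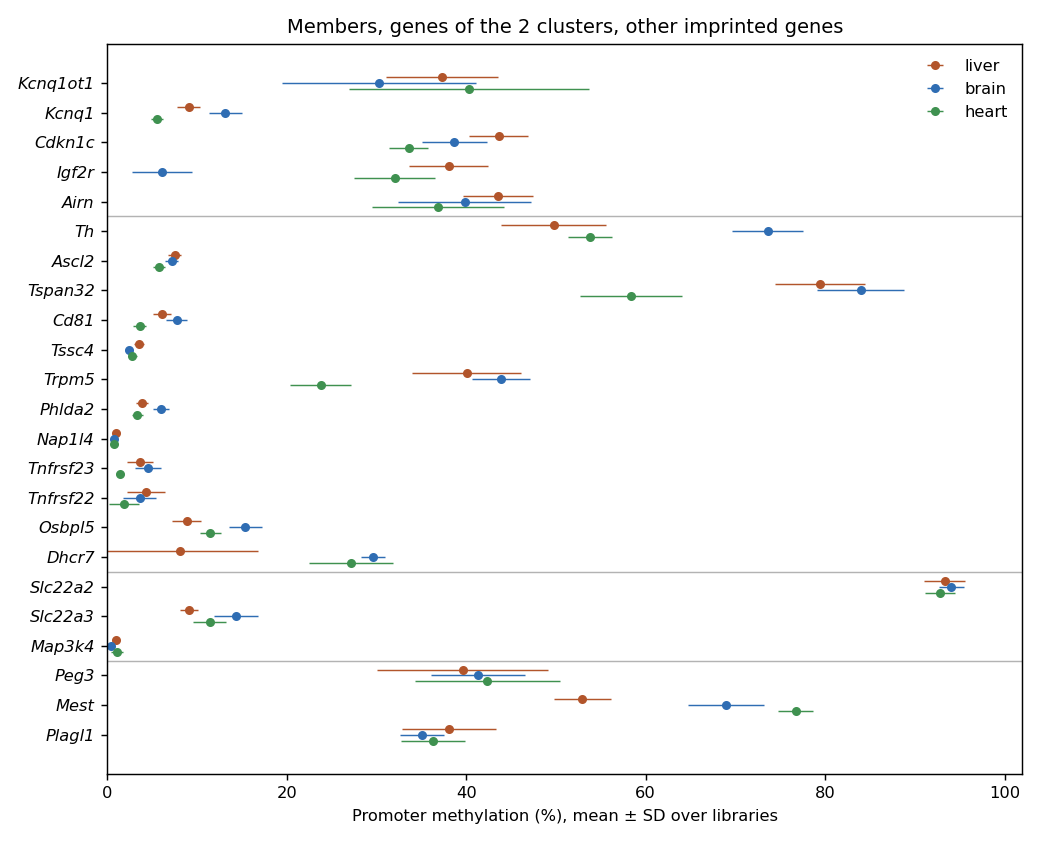
Promoter methylation in percent (mean ± SD over libraries) for the 5 genes, the measured genes of the Kcnq1ot1 cluster, those of the Airn cluster and 3 other imprinted genes, separated by lines from top to bottom. The brain point of Igf2r, at 6.09%, lies apart from liver and heart.

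The tissue labels were checked at promoters of marker genes. All 3 measured liver markers, of 8 listed, were lowest in liver, such as the fibrinogen gene Fgb at 23.4% in liver, 82.7% in brain and 76.8% in heart. Of 4 measured heart markers, of 8 listed, 3 were lowest in heart. Ttn had 38.5% there, against 73.1% in liver and 72.3% in brain. The other, Nppa, was lowest in brain, at 37.3% against 80.7% in liver and 73.3% in heart. Nppa was called lower in brain in both comparisons, against its listing as a heart marker. Of 7 measured brain markers 4 were lowest in brain. The myelin gene Mog had the largest difference, at 75.3% against 89.2% in liver and 86.0% in heart. Syt1 and Snap25 were low in each tissue, with 1.33% and 1.45% in brain against 3.74% and 3.99% in liver. Grin1 and Slc1a2 were lowest in heart, while another myelin gene, Mbp, was highest in brain at 17.7% against 13.8% and 14.2%. No brain marker reached 25 points. The endothelial markers Pecam1 and Tie1 were called lower in heart, with 40% and 48.2% against 71.9% or more in liver and brain. Cdh5 had 65.8% in heart, 80.4% in liver and 85.2% in brain without a call. The part of these cells in the lower heart levels was not tested. The B cell marker Cd79a, the other measured gene among 6 markers of other cells, had 91.7% to 94.4%.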

How the data were processed

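RRBS libraries were sequenced by a service, and the labels name Bismark, methylKit and mm10. The authors state that the service also mapped these reads, by methods of its own, and name Bismark for reads of another study. The authors averaged CpGs into tiles of 100 bp, kept those covered by more than 10 reads in every replicate of a tissue and under the 99.8th percentile, and deposited methylation as a fraction from 0 to 1 per library, without counts. Depth behind each value is therefore unknown, and no interval for counting error was given.

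Fractions were multiplied to percent. Tiles in all 3 tables were compared between tissues with limma 3.58.1 (mean-variance trend, 24 libraries in 1 fit, Benjamini-Hochberg adjustment over all promoters or tiles), and intervals used 21 residual degrees of freedom. Libraries from shared mice were treated as independent, and where nothing else is stated p-values measure the spread between these libraries only. Gene starts were the outermost curated RefSeq starts, and 3 of the 5 genes had a RefSeq promoter sequence. In simulated data 99.5% of 200 promoters and 92.5% of 200 tiles moved by 35 points were recovered for brain minus liver. Only features with liver means near the middle of the scale were moved, with independent noise. The recovery of smaller shifts, such as those at the antisense promoters, was not simulated. No 2 libraries were duplicates, with at most 3.41% equal values. The 5 genes, the lists of neighbours and markers, and the rule for named tiles (nearest, lowest and highest in each promoter, and the 10 largest differences) were chosen with earlier results of these data known. One listed neighbour in the Airn cluster is not reported here.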

Additional observations from a re-analysis of the deposited data

Results flagged for a closer look

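Brain and heart values were searched for a library far from the other 5, by Dixon's criterion. The search covered the 5 promoters, the promoter tiles of Kcnq1ot1, Airn and Igf2r, and the 10 tiles with the largest tissue difference. Of 56 groups 11 had such a library, where chance gives about 1 in 20, and 6 of the 11 were brain library 1. Tiles of 1 promoter are not independent of each other or of their mean. Liver, with 12 libraries, was not searched.

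Brain library 1 had 12.8% at the Igf2r promoter, where the other 5 had 3.63% to 5.90%, and 54.2% at the Airn promoter, where the others had 34.6% to 41.1%. In single tiles it had 65.2% at the Airn tile from chr17:12741501, 11.7% and 17.5% at the Igf2r tiles from chr17:12769501 and chr17:12769701, and 46.2% at the Kcnq1 tile from chr7:143370401, where the others had 82.5% to 91.9%.

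Heart library 3 had 65.5% at the Airn tile from chr17:12741501, 8.40% at the Airn tile from chr17:12794101 and 71.0% at the Kcnq1 tile from chr7:143367601. Heart library 2 had 47.1% and 45.9% at the Igf2r tiles from chr17:12769201 and chr17:12769301, where the others had 24.5% to 31.0% and 25.2% to 31.0%.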

How the results depend on the processing

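The calls of the 5 promoters kept their direction and their side of the threshold on a logit scale, without the trend, with windows of 500 or 2000 bp, with 5 or more tiles, with an exact permutation test and, chosen after the data were seen, without brain library 1, wherever a value could be had. Kcnq1ot1 had no tile within 500 bp, and Kcnq1ot1 fell out with 5 or more tiles. At 10 points Cdkn1c heart minus liver, at -10.0 points, passed. Averaging weighted by CpGs moved Kcnq1 to 5.43%, 8.51% and 3.60% in liver, brain and heart, and Cdkn1c to 32.9%, 29.4% and 25.5%. A window of 500 bp moved Cdkn1c to 37.1%, 31.1% and 25.7%, and one of 2000 bp moved Cdkn1c to 40.3% in liver and 31.0% in heart and Airn to 51.8% in liver. Tiles of each tissue's own table moved Igf2r to 11.3% in brain and 38.0% in heart, since they add the tile upstream of the start. At 10 points 1993, 2214 and 1997 promoters were called for brain minus liver, heart minus liver and brain minus heart, and with 5 or more tiles 125, 111 and 66, where fewer promoters were tested. Tiles of the 5 genes called at 10 points were 58, 80 and 75 of 200, against 24.6%, 28.8% and 27.5% of all tiles. The counts of tiles were 32, 40 and 40 without brain library 1. No paired analysis was possible because the columns carry no mouse numbers.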
